A study of Mus musculus with 10 samples.

Results

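Heavy chain (Igh) rearrangements of B-1a cells from the peritoneal cavity were compared between Igll1-/- and wild-type (WT) mice in 4 libraries, 2 per genotype, of the 10 libraries of the series; the other 6 hold Igk rearrangements. All mice were C57BL/6 and 6 to 8 weeks old, the cells were sorted, and genomic DNA was the template. The Igll1-/- mice are labelled as Igll1 knockouts and the WT mice as wild type, and the sources used here do not say whether a library is 1 animal or several. Rearranged Igh DNA shows neither the state of Igll1 nor the surface markers of the cells, so neither label could be checked here. The 4 libraries were taken by their genotype, cell type and locus, and all clonotypes in them were kept, 195529 in all. A clonotype is a V, D and J gene with 1 CDR3 amino acid sequence, and CDR3 is the loop of the heavy chain that spans the V-D-J junction. Its count of reads is the only measure of its size.

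A heavy chain gene is assembled from a V, a D and a J segment, and the bases added or lost at both joints make CDR3 the most diverse part of the antibody. Igll1 encodes lambda5, which with VpreB forms the surrogate light chain (SLC). A new heavy chain pairs with SLC as the pre-BCR, and heavy chains that pair well drive the expansion of pre-B cells. B-1a cells arise largely in fetal life and carry recurrent heavy chains of nearly germline sequence, such as IGHV11-2 and IGHV12-3 chains that bind phosphatidylcholine. A D segment can be read in different frames, of which one gives mostly tyrosine, glycine and serine and another gives hydrophobic residues such as valine, isoleucine, leucine and methionine together with threonine. A D-J join in the hydrophobic frame can be translated as a truncated heavy chain, called Dmu, which also pairs with SLC.

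The libraries held 55129 and 49809 clonotypes in WT and 32386 and 58205 in Igll1-/- B-1a cells, from 180593 to 285517 reads each. From 68.0% to 73.4% of the clonotypes rested on 1 read, and there were no molecular barcodes, so reads mix cell number with PCR amplification. Most results below count each clonotype once. Many CDR3s were listed under several V genes. A clonotype with the same J and CDR3 as a clonotype of at least 10 times its reads under another V gene accounted for 13.9% and 33.8% of WT and 26.7% and 33.7% of Igll1-/- clonotypes, with a median of 1 read. The main comparisons were therefore also computed with such clonotypes merged into the larger one, but not the residues by place in the loop, the CDR3 forms of IGHV11-2 and IGHV12-3 or the clone size classes. The largest clonotypes of a library also recurred at low counts in the others. Of the 100 largest of each library, 50 to 86 were found in another library, at medians of 0.5 to 10.5 reads. The part of both facts in the results was not tested.

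The CDR3s on which the results turn are shown first, since each comparison below returns to them. The first 3 belonged to the 3 clonotypes of the largest mean read share in WT, all IGHV11-2 joined to IGHJ1, and the next 2 to the largest clonotype of each Igll1-/- library, both IGHV12-3. The last 5 are, for each of 5 D genes, the clonotype with the most reads whose CDR3 carries a stretch of the hydrophobic frame.
Clonotype of IGHV11-2, IGHD2-1, IGHJ1: MRYGNYWYFDV
Clonotype of IGHV11-2, IGHD2-5, IGHJ1: MRYSNYWYFDV
Clonotype of IGHV11-2, IGHD1-1, IGHJ1: MRYGSSYWYFDV
Clonotype of IGHV12-3, IGHJ1: AGDNYGYWYFDV
Clonotype of IGHV12-3, IGHD2-3, IGHJ2: AGDLYDGYYYFDY
Clonotype of IGHV9-3, IGHD1-1, IGHJ4: ARSTVVAMDY
Clonotype of IGHV1-85, IGHD2-1, IGHJ2: ARSTMVTYYFDY
Clonotype of IGHV1-22, IGHD2-3, IGHJ3: AMMVTAY
Clonotype of IGHV9-3, IGHD2-4, IGHJ3: ATMITTWFAY
Clonotype of IGHV5-17, IGHD2-5, IGHJ3: AIVTFAY

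Use of the 4 J genes was compared first, since J sets the end of CDR3. IGHJ1 was used by 12.96% and 18.2% of WT and by 12.7% and 10.9% of Igll1-/- clonotypes. IGHJ3 was used by 23.7% and 18.2% of WT and by 25.0% and 25.9% of Igll1-/- clonotypes. IGHJ2 was the most common in every library, at 45.4% and 45.2% in WT and 44.2% and 43.4% in Igll1-/- B-1a cells. IGHJ4 lay between 17.9% and 19.7%. Both Igll1-/- libraries were thus below both WT libraries for IGHJ1 and IGHJ2 and above them for IGHJ3, while for IGHJ4 the genotypes overlapped. The order of IGHJ1 was lost without the IGHV11 and IGHV12 families (9.64% and 14.3% against 11.1% and 10.3%), with near-identical clonotypes merged and with at least 2 reads, and that of IGHJ2 by reads and after merging across V genes. With 2 libraries per genotype the two-sided exact permutation test cannot go below p = 0.333, which is its value for the 3 J genes that did not overlap, and it gave p = 0.667 for IGHJ4. The percent of clonotypes that would have to use another J for a pair of libraries to match was 5.71 between the WT and 2.52 between the Igll1-/- libraries. It was 1.49, 4.01, 6.74 and 9.03 for the 4 pairs of a WT and an Igll1-/- library, so with each clonotype counted once the J use of the genotypes differed about as much as that of the WT replicates. By reads this turned. The mixed pairs then differed by 10.1% to 24.5%, the WT libraries by 4.98% and the Igll1-/- libraries by 11.6%. IGHJ1 held 34.2% and 37.3% of WT and 24.4% and 12.8% of Igll1-/- reads, and IGHJ3 16.1% and 14.4% against 21.2% and 27.4%. With at least 10 reads per clonotype the mixed pairs differed by 9.89% to 13.3% and the WT libraries by 7.76%.

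The J genes joined to IGHV11-2 differed more. IGHJ1 was carried by 74.8% and 72.4% of IGHV11-2 clonotypes in WT and by 33.5% and 31.7% in Igll1-/- B-1a cells, a gap many times the spread between replicates. After merging across V genes it was 75.9% and 77.9% against 39.3% and 39.2%. IGHV11-2 with IGHJ1 made up 2.24% and 3.47% of all WT clonotypes against 0.275% and 0.304% in Igll1-/- libraries. With any other J it made up 0.753% and 1.32% in WT and 0.547% and 0.656% in Igll1-/- libraries. By reads, IGHV11-2 with IGHJ1 held 20.2% and 23.8% in WT and 0.212% and 0.331% in Igll1-/- libraries, whereas with another J it held 0.379% and 0.564% against 0.281% and 0.372%. Both sets were lower in Igll1-/- libraries, and the gap was wide for the IGHJ1 set and narrow for the rest. The J genes of IGHV12-3 showed no such split. Its IGHJ1 share was 35.9% and 38.5% in WT and 42.7% and 19.8% in Igll1-/- B-1a cells, so the Igll1-/- libraries lay on either side of the WT values.

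**Figure D1:**
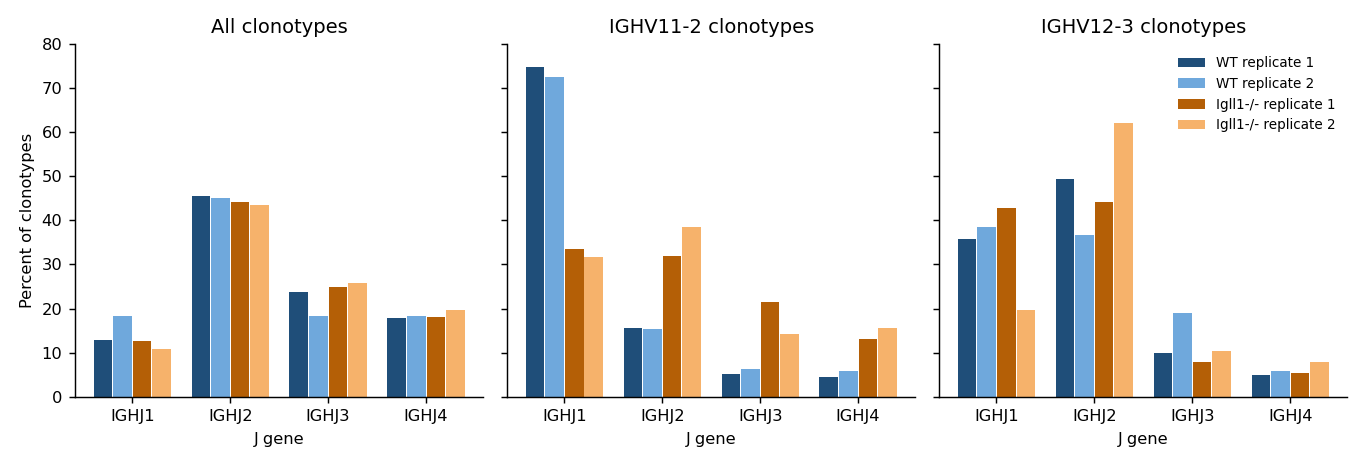
Percent of clonotypes (y axis) with each J gene (x axis) among all clonotypes, IGHV11-2 clonotypes and IGHV12-3 clonotypes; each bar is 1 library. Among IGHV11-2 clonotypes IGHJ1 stands at 74.8% and 72.4% in WT and at 33.5% and 31.7% in Igll1-/- libraries, while for IGHV12-3 the Igll1-/- bars for IGHJ1 lie on either side of the WT bars.

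To place this among all V-D-J combinations, 973 combinations that reached 10 clonotypes in 2 or more libraries were tested with edgeR's quasi-likelihood test and Benjamini-Hochberg adjustment. In Igll1-/- B-1a cells 15 combinations (1.54%) were lower and 4 (0.411%) higher at an adjusted p under 0.05. Of the 15 that fell, 13 were IGHV11-2 with IGHJ1. All 15 tested combinations of IGHV11-2 with IGHJ1 lay lower in both Igll1-/- libraries than in both WT libraries, which held for 23.3% of all 973 combinations. For comparison, 12.6% of all were higher in both. The median log2 fold change of these 15 combinations was −3.31, beside a median of −0.07 over all combinations. Their range was from −4.79 to −1.16. Some of the 15, such as those with IGHD2-12 and IGHD2-14, reached 10 clonotypes in the WT libraries only. The minimum thus favoured a lower share for them, so the count of 13, the direction and the median of the set are a description only. IGHV11-2 with another J gave 13 tested combinations, of which 0 passed and 8 lay lower in both Igll1-/- libraries, with a median of −0.83.

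IGHV11-2 with IGHJ1 fell with each of several D genes. The combination with IGHD2-1, the D gene of the first CDR3 shown above, counted 226 and 358 clonotypes in WT and 14 and 20 in Igll1-/- libraries, a log2 fold change of −3.87 (SE 0.51, edgeR adjusted p = 6.6e-11). The one with IGHD2-5 counted 210 and 294 against 7 and 20, a log2 fold change of −4.07 (SE 0.55, edgeR adjusted p = 8.1e-11). With IGHD2-3 there were 101 and 177 clonotypes in WT and 3 and 11 in Igll1-/- libraries (−4.16, SE 0.67, edgeR adjusted p = 1.5e-07). Counts in the Igll1-/- libraries were at or near 0 for the combinations with IGHD2-12, at 15 and 42 against 2 and 0, and with IGHD2-14, at 12 and 26 against 0 and 1. Summed over libraries, the share in Igll1-/- was 0.0406 of that in WT for the first (exact 95% interval for counting error only, 0.00481 to 0.154). For the second it was 0.0305 (0.000752 to 0.18). Both combinations reached the minimum through the WT libraries only, so these values are a description and no test of a fall. The other 2 combinations that fell were IGHV12-3 with IGHD2-3 and IGHJ3 and IGHV1-49 with IGHD2-5 and IGHJ2.

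The 4 combinations that rose had no V gene of these families. IGHV7-3 with IGHD2-3 and IGHJ1 counted 13 and 7 clonotypes in WT and 26 and 101 in Igll1-/- libraries (log2 fold change 2.75, SE 0.71, edgeR adjusted p = 0.0129). IGHV1-85 with IGHD2-1 and IGHJ2 counted 16 and 4 against 49 and 40 (2.52, SE 0.71, edgeR adjusted p = 0.0248). In both, the Igll1-/- libraries lay above the WT libraries. The log2 fold change of each stayed positive in the alternative settings, but each call was lost in most of them. In the other two the genotypes overlapped and 1 Igll1-/- library carried the change. IGHV1-85 with IGHD2-4 and IGHJ2 counted 10 and 2 against 5 and 65 (2.53, SE 0.73, edgeR adjusted p = 0.0270), and IGHV9-4 with IGHD4-1 and IGHJ1 counted 11 and 10 against 71 and 8 (2.48, SE 0.71, edgeR adjusted p = 0.0257). Without Igll1-/- replicate 1 the last turned to −0.53.

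IGHV12-3 gave 32 tested combinations, of which 1 fell and 0 rose, with a median log2 fold change of −0.35 for the 10 with IGHJ1 and 0.04 for the 22 with another J. IGHV11-1, the other IGHV11 gene, had 1 combination tested, which was higher in both Igll1-/- libraries with a log2 fold change of 0.97 and did not pass. IGHV7-1, the phosphorylcholine-binding V gene of the T15 antibody, had 7, 1, 2 and 6 clonotypes and none of its combinations reached the minimum. The 19 calls were 0 when WT replicate 1 or WT replicate 2 was left out, 14 without Igll1-/- replicate 1, 8 without Igll1-/- replicate 2 and 5 after identical CDR3s were merged across V genes, of which the 4 that fell were IGHV11-2 and IGHJ1 with IGHD1-1, IGHD2-1, IGHD2-3 and IGHD2-5. By reads 0 passed, and with near-identical clonotypes merged fewer than 19 did.

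**Figure D2:**
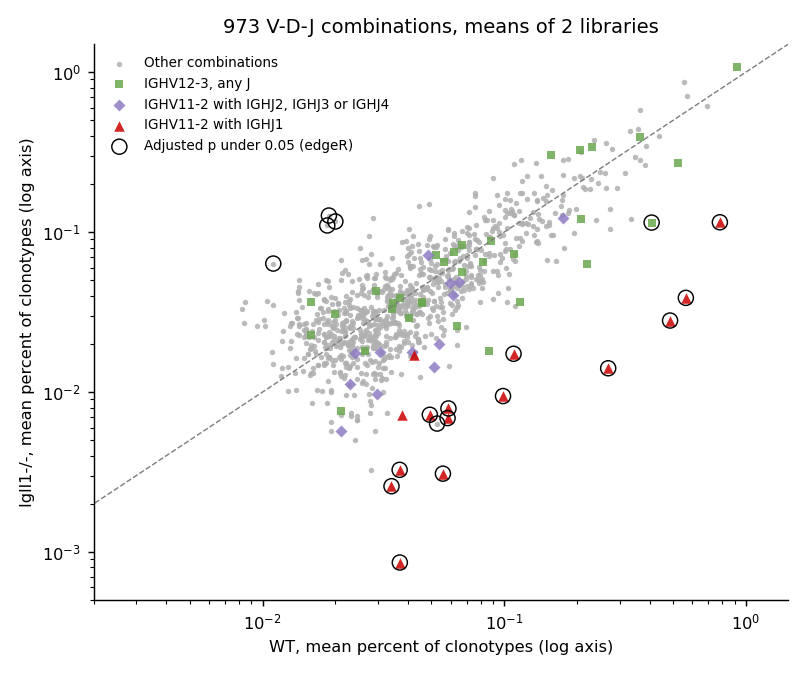
Mean percent of clonotypes of each V-D-J combination in WT (x axis, log) and Igll1-/- (y axis, log) libraries; each point is 1 of 973 combinations, the dashed line marks equal shares and circles mark an edgeR adjusted p under 0.05. The red triangles, IGHV11-2 with IGHJ1, lie below the line and 13 of the 15 are circled.

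D genes were then compared. Of the 22 D genes tested, 0 (0%) differed between the genotypes by edgeR's quasi-likelihood test at an adjusted p under 0.05, with 3 at an unadjusted p under 0.05 and 0 by DESeq2. Both Igll1-/- libraries were higher than both WT libraries for 3 D genes (13.6%) and lower for 8 (36.4%). IGHD1-1, the longest D gene of the DFL16 family, was the most used, at 29.2% and 28.8% of WT and 30.1% and 31.0% of Igll1-/- clonotypes (log2 fold change 0.08, SE 0.04, edgeR adjusted p = 0.349). IGHD4-1 (DQ52), the short D gene next to the J genes that is common in fetal rearrangements, stood at 9.80% and 12.03% in WT and 9.38% and 8.50% in Igll1-/- B-1a cells (−0.29, SE 0.14, edgeR adjusted p = 0.349). The DST4 genes IGHD3-2 and IGHD3-3 had log2 fold changes of −0.39 and −0.40. IGHD3-2 was used by 3.98% and 3.84% of WT and 3.08% and 2.90% of Igll1-/- clonotypes. Of the DSP2 genes, IGHD2-1 stood at 7.28% and 7.52% against 7.95% and 8.63%, and IGHD2-14 at 0.813% and 0.743% against 1.06% and 1.01%.

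By family, the DSP2 genes made up 41.6% and 38.5% of WT and 41.9% and 41.7% of Igll1-/- clonotypes, and the DFL16 genes 32.2% and 32.3% against 33.1% and 34.8%. The DST4 genes made up 8.72% and 9.03% against 7.39% and 6.31%. No family overlapped between the genotypes, DST4 and DQ52 being lower and DSP2 and DFL16 higher in Igll1-/- libraries, each with the smallest possible exact permutation p of 0.333. By reads DSP2 turned, at 47.9% and 46.0% in WT and 38.9% and 45.7% in Igll1-/- libraries, again without overlap. The files name 23 D genes, of which 12, with 22.2% to 23.6% of clonotypes, are not in the C57BL/6J annotation of RefSeq, so single DSP2 and DST4 genes are less certain than their families. Clonotypes without a named D gene made up 5.62% and 5.85% of WT and 6.40% and 6.71% of Igll1-/- clonotypes.

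D-J pairs gave 0 calls (0%) of 84 tested by edgeR's quasi-likelihood test, with 10 at an unadjusted p under 0.05 and 1 by DESeq2. Both Igll1-/- libraries were above both WT libraries for 12 pairs (14.3%) and below for 23 (27.4%). The counts differed by J gene. Of 22 pairs with IGHJ3, 7 were higher and 0 lower in both Igll1-/- libraries, at a median log2 fold change of 0.26. Of 19 pairs with IGHJ1, 0 were higher and 7 lower, at a median of −0.34, beside −0.12 over all pairs. Pairs with IGHJ2 gave 2 higher and 7 lower of 21 (median −0.08), and pairs with IGHJ4 gave 3 higher and 9 lower of 22 (median −0.16), although IGHJ4 itself overlapped. IGHD2-5 with IGHJ1 had the lowest p, at 1.11% and 1.87% of WT and 0.611% and 0.515% of Igll1-/- clonotypes (log2 fold change −1.40, SE 0.32, edgeR adjusted p = 0.273). IGHD3-2 with IGHJ1 followed at 0.207% and 0.436% against 0.0926% and 0.120% (−1.58, SE 0.43). Of pairs with positive log2 fold changes the lowest p belonged to IGHD2-1 with IGHJ3, at 1.61% and 1.11% against 2.16% and 2.36% (0.74, SE 0.25, edgeR adjusted p = 0.308).

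CDR3 length was measured over productive clonotypes, in amino acids. The mean was 10.69 and 10.51 in WT and 10.42 and 10.24 in Igll1-/- B-1a cells, so both Igll1-/- libraries were shorter (exact permutation test, p = 0.333). The spread of lengths within a library was wider in Igll1-/- libraries, with SDs of 3.11 and 3.10 against 2.93 and 2.92 in WT. CDR3s of at most 8 residues made up 22.5% and 24.3% of WT and 26.3% and 29.4% of Igll1-/- clonotypes. CDR3s of at least 14 residues made up 14.3% and 13.1% against 13.1% and 11.7%, and there the genotypes overlapped.

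Of 18 lengths tested, 1 rose (5.56%) and 1 fell (5.56%) in Igll1-/- B-1a cells by edgeR's quasi-likelihood test. CDR3s of 6 residues made up 4.90% and 5.14% of WT and 6.71% and 7.77% of Igll1-/- clonotypes (log2 fold change 0.53, SE 0.14, edgeR adjusted p = 0.0137). CDR3s of 11 residues made up 14.5% and 15.9% against 11.7% and 11.7% (−0.38, SE 0.12, edgeR adjusted p = 0.0431). In both lengths the libraries of the genotypes did not overlap. Most 6-residue CDR3s used IGHJ2, in 53.4% to 63.1%, or IGHJ3, in 29.8% to 39.5%, and ATGFAY, ARLFAY, ARWFAY and ARLGDY were among the most common, each under many V genes. MRYGNYWYFDV and MRYSNYWYFDV, shown above, have 11 residues. IGHV11-2 held 7.49% and 11.6% of the 11-residue CDR3s in WT and 1.18% and 1.30% in Igll1-/- libraries. With the IGHV11 and IGHV12 families left out, the length of 11 still fell (log2 fold change −0.30, edgeR adjusted p = 0.0456). The adjusted p of 12 residues was 0.279, at 16.6% and 15.7% against 14.8% and 12.4%. Neither call passed with TMM scaling, with the replicate number as a block or by reads. The call of 11 residues was also lost without a filter on low counts and after merging across V genes, where that of 6 residues held. When each library was left out in turn, the call of 6 residues was lost in all 4 fits, and that of 11 residues was lost in 3, all but the fit without WT replicate 1.

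**Figure D3:**
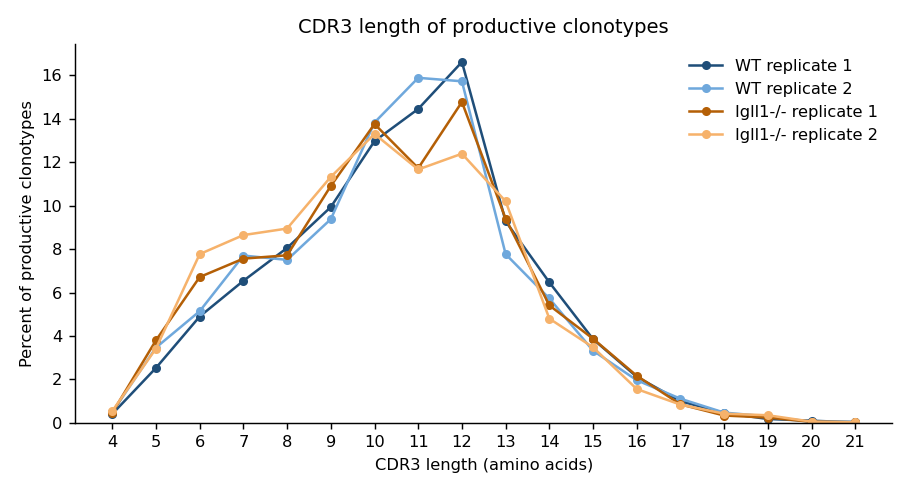
Percent of productive clonotypes (y axis) at each CDR3 length in amino acids (x axis); each line is 1 library. At 6 residues both Igll1-/- lines (6.71% and 7.77%) lie above both WT lines, and at 11 residues (11.7% in both) below them.

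The amino acid make-up of CDR3 was compared as the share of each residue among all CDR3 residues of productive clonotypes. Of 20 residues, 1 rose (5%) and 2 fell (10%) in Igll1-/- B-1a cells by edgeR's quasi-likelihood test. Threonine made up 3.71% and 3.45% of residues in WT and 4.69% and 4.67% in Igll1-/- libraries (log2 fold change 0.39, SE 0.08, edgeR adjusted p = 0.000322). Aspartate made up 10.8% and 11.1% against 9.73% and 9.76% (−0.17, SE 0.05, edgeR adjusted p = 0.00684). Glycine made up 8.80% and 8.88% against 8.13% and 7.57% (−0.17, SE 0.05, edgeR adjusted p = 0.0124). For all 3 the gap between genotypes exceeded the spread between replicates.

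The shift lay mostly in the centre of the loop. Between the first 2 and the last 4 residues, threonine made up 5.11% and 4.52% in WT and 6.83% and 6.58% in Igll1-/- libraries. In that centre aspartate made up 8.56% and 8.34% against 6.37% and 6.84%, and glycine 15.5% and 15.7% against 14.6% and 13.9%. Over the first 2 residues, which the V gene mostly sets, threonine made up 5.85% and 5.98% against 6.72% and 7.26%. Of the residue groups, the acidic residues held 11.9% and 12.1% in WT and 10.6% and 10.7% in Igll1-/- libraries, and the aliphatic residues 9.56% and 9.49% against 10.5% and 11.1%. Aromatic residues, tyrosine included, overlapped, at 31.7% and 32.4% against 31.6% and 31.9%. The mean hydropathy of a CDR3 (Kyte-Doolittle scale, where higher is more hydrophobic) was −0.661 and −0.667 in WT and −0.567 and −0.527 in Igll1-/- B-1a cells, and its mean net charge −0.247 and −0.297 against −0.112 and −0.188. Neither overlapped between the genotypes, and for both the exact permutation test gave its smallest p of 0.333. By reads the genotypes overlapped in net charge, at −0.511 and −0.311 in WT and −0.438 and −0.327 in Igll1-/- libraries. The threonine call held in 12 of 14 alternatives, not by reads (0.69, edgeR adjusted p = 0.271) or without WT replicate 2 (0.33, edgeR adjusted p = 0.0693). The calls of aspartate and glycine each held in 9 of 14. Both were lost by reads, after merging across V genes and without WT replicate 1, WT replicate 2 or Igll1-/- replicate 2.

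Since the hydrophobic frame of these D genes carries threonine, and their tyrosine-rich frame often glycine or aspartate, the CDR3s were then searched for a short stretch of each frame. The stretches were chosen after the amino acid result was known, so what follows is a description of the same shift and no separate support for it. For the tyrosine-rich frame the letters were GSS in clonotypes of IGHD1-1, GNY in IGHD2-1, DGY in IGHD2-3, YDY in IGHD2-4 and SNY in IGHD2-5. For the hydrophobic frame they were TVV, MVT, MVT, MIT and IVT in the same order. Over the 5 D genes, the tyrosine-rich stretches were present in 47.7% and 50.7% of WT and 40.3% and 41.8% of Igll1-/- productive clonotypes. The hydrophobic stretches were present in 9.29% and 7.40% of WT and 13.9% and 14.1% of Igll1-/- clonotypes. Both Igll1-/- libraries thus had fewer of the first and more of the second, with differences of −8.17 and 5.66 percentage points (exact permutation test, p = 0.333 for each).

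The same direction held in each of the 5 named D genes, with no overlap between the genotypes. IGHD2-1 is among the names that are not in the C57BL/6J annotation of RefSeq. In IGHD2-4 clonotypes the hydrophobic stretch stood at 9.36% and 3.83% in WT and 21.2% and 24.7% in Igll1-/- B-1a cells. In IGHD2-5 it stood at 6.28% and 2.57% against 15.2% and 13.7%, and in IGHD2-1 at 4.90% and 1.17% against 14.4% and 8.15%. IGHD2-3 had 3.26% and 1.29% against 7.03% and 6.64%. The gap was smallest in IGHD1-1, at 13.2% and 12.97% against 13.7% and 16.0%, where Igll1-/- replicate 1 was close to WT and the genotypes overlapped with at least 2 reads, by reads and after merging across V genes. The tyrosine-rich stretch of IGHD2-3 fell from 51.9% and 55.2% in WT to 34.3% and 41.1% in Igll1-/- libraries, and that of IGHD2-4 from 48.0% and 56.1% to 37.6% and 34.7%.

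The gap was wider among large clonotypes. Of clonotypes with at least 10 reads, the hydrophobic stretches were present in 4.86% and 5.09% in WT and 14.8% and 15.3% in Igll1-/- libraries, and the tyrosine-rich ones in 59.1% and 56.4% against 39.1% and 40.9%. Over clonotypes of all sizes, the hydrophobic stretches without the IGHV11 and IGHV12 families stood at 9.997% and 8.06% against 14.4% and 14.6%. The gap among clonotypes with at least 10 reads was not computed without these families. After merging across V genes, again over all sizes, the hydrophobic stretches stood at 10.001% and 7.36% against 13.2% and 12.4%. Leaving out each library in turn gave differences of 4.72 to 6.61 points. Among the single clonotypes shown above, ARSTVVAMDY had 0 reads in both WT libraries, a count that allows up to 3, and 645 and 2998 in the Igll1-/- libraries, and ATMITTWFAY 0, 0, 0 and 2404. AMMVTAY had 6 and 3 reads in WT and 1 and 1177 in Igll1-/- libraries, and ARSTMVTYYFDY had 2 and 1 against 436 and 3. AIVTFAY had 6 and 0 against 1 and 340. Of these 5, ARSTVVAMDY was large in both Igll1-/- libraries, and the other 4 in 1 of them. All 5 were chosen for having the most reads, so their size is a description only.

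**Figure D4:**
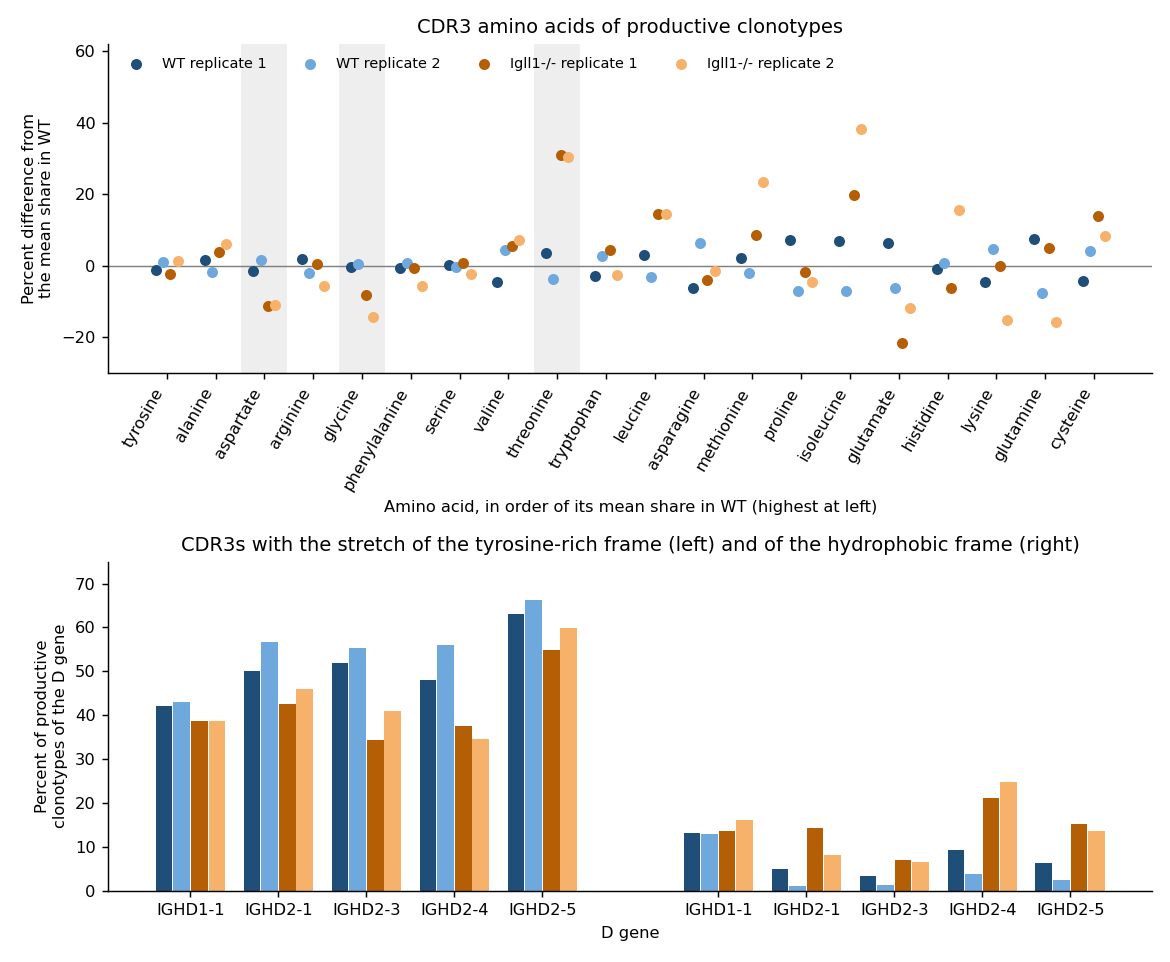
Upper panel: percent difference of the share of each CDR3 amino acid in a library (points) from the mean share in WT, with residues of an edgeR adjusted p under 0.05 shaded. Lower panel: percent of productive clonotypes of 5 D genes with the stretch of the tyrosine-rich frame (left) or of the hydrophobic frame (right), 1 bar per library with the colours of the upper panel; the Igll1-/- bars are lower on the left and higher on the right in each D gene.

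The CDR3s of the V genes that bind phosphatidylcholine were described in the same libraries. IGHV12-3 chains that bind it typically have a CDR3 of fixed length with a glycine at a fixed place, which as counted here is a CDR3 of 12 residues with glycine at residue 6. This form made up 72.1% and 53.8% of productive IGHV12-3 clonotypes in WT and 65.6% and 27.9% in Igll1-/- B-1a cells, and 93.9% and 79.1% against 97.1% and 27.3% of their reads. Igll1-/- replicate 1 thus lay within the WT range by clonotypes, and Igll1-/- replicate 2 stood apart. In Igll1-/- replicate 2 the form of 13 residues with glycine at residue 7 held 21.4% of IGHV12-3 clonotypes and 56.8% of their reads, against 1.35% to 7.51% and 0.128% to 9.13% in the other 3 libraries. AGDLYDGYYYFDY, the largest clonotype of that library, is of this form. IGHV11-2 CDR3s began with MRY in 60.7% and 45.8% of WT and 46.0% and 37.6% of Igll1-/- clonotypes, and those of 11 residues made up 39.2% and 39.7% in WT against 17.6% and 16.8%, a gap well beyond the spread between replicates.

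The productive share of the clonotypes was 92.3% (95% Wilson interval 92.1 to 92.5) and 93.0% (92.7 to 93.2) in WT and 94.0% (93.7 to 94.2) and 94.0% (93.8 to 94.2) in Igll1-/- B-1a cells. These intervals cover counting error only. The libraries did not overlap, with a difference of 1.33 points (exact permutation test, p = 0.333). The tables hold CDR3s in frame only, so out-of-frame joins are not part of this share. A stop codon within CDR3 marked 72.8% to 87.8% of the unproductive clonotypes. By reads the direction turned, with a difference of −1.50 points, and single clonotypes weighed heavily there. In Igll1-/- replicate 2 an unproductive IGHV12-3, IGHD2-3 and IGHJ1 clonotype with a 12-residue CDR3 free of stop codons took 37.3% of the unproductive reads, and in Igll1-/- replicate 1 an IGHV5-17, IGHD2-4 and IGHJ4 clonotype with a stop codon took 35.3%.

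For the clone size spectrum, the number of clonotypes was compared at equal depth, that of the shallowest library, 180593 reads. WT libraries then held 48557 and 44152 clonotypes and Igll1-/- libraries 32386 and 42381, fewer in both (exact permutation test, p = 0.333). The measures that follow used all reads of each library, so depth enters them. Igll1-/- replicate 1 was the shallowest library and Igll1-/- replicate 2, with 285517 reads, the deepest. The effective number of clonotypes, which is the number of equally large clonotypes with the same Shannon entropy, was 4638 and 4482 in WT and 1558 and 5201 in Igll1-/- libraries, so the Igll1-/- libraries lay on either side of WT (p = 1 by the exact permutation test). After merging across V genes it was 3654 and 2341 in WT and 889 and 1911 in Igll1-/- libraries, lower in both. Without the IGHV11 and IGHV12 families, which hold many of the largest WT clonotypes, it was 16536 and 10751 in WT and 2952 and 6562 in Igll1-/- libraries, again lower in both. To hold 50% of the reads took the largest 825 and 719 clonotypes in WT and the largest 186 and 550 in Igll1-/- libraries. The 100 largest held 34.1% and 31.4% of reads in WT and 43.9% and 30.9% in Igll1-/- libraries, and without those families 12.6% and 16.2% against 35.7% and 27.0%, no longer overlapping. The 1000 largest held 51.9% and 54.2% against 67.6% and 57.0%. Clonotypes with at least 1000 reads numbered 12 and 8 in WT and 9 and 21 in Igll1-/- libraries. Of these, 75% in each WT library and 11.1% and 14.3% in the Igll1-/- libraries used IGHJ1.

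Most clonotypes among the largest of a library were not among the largest of another, also within a genotype. Of the 2000 largest clonotypes of each library, matched by V, J and CDR3, the WT libraries shared 260 (13%) and the Igll1-/- libraries 133 (6.65%). WT replicate 1 shared 129 with Igll1-/- replicate 1 and 84 with Igll1-/- replicate 2, and WT replicate 2 shared 81 and 65 with them. Of the 260 shared by the WT libraries, 83 were IGHV11-2 and 41 IGHV12-3. In the pairs with an Igll1-/- library IGHV11-2 counted 5 to 7 of the shared clonotypes. With the IGHV11 and IGHV12 families left out, the WT libraries shared 158, the Igll1-/- libraries 135 and the mixed pairs 65 to 121. The mean overlap between genotypes was 4.49% ± 1.37 (SD over 4 pairs that share libraries) and the mean within genotypes 9.83%. Over the 10000 largest, which reach down to clonotypes of 1 to 3 reads, the order changed, and WT replicate 1 shared 1488 with Igll1-/- replicate 1 but 1339 with WT replicate 2.

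**Figure D5:**
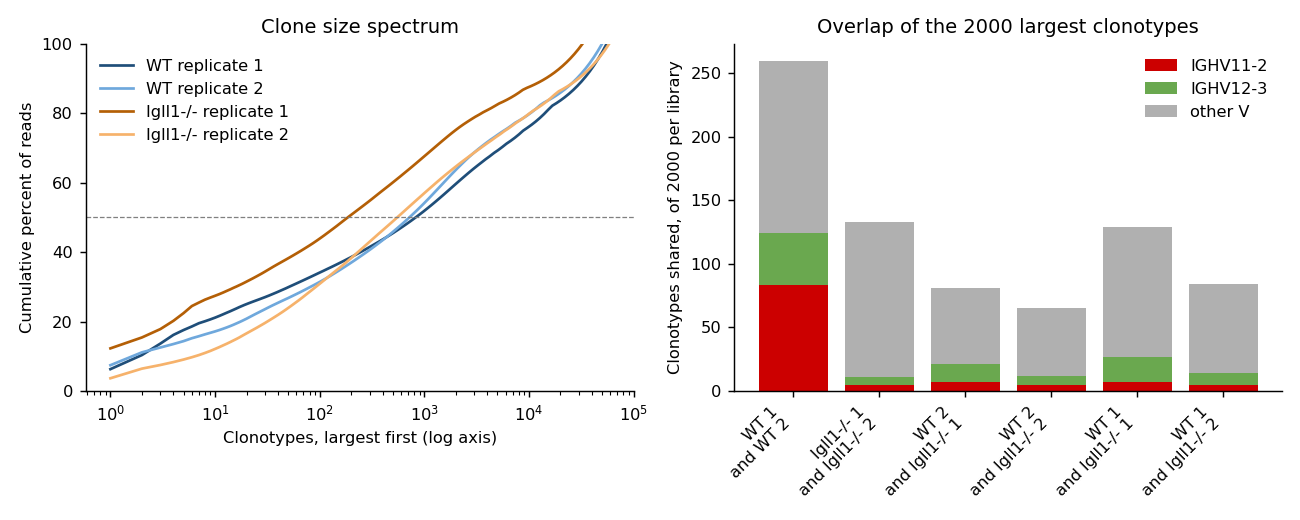
Left: cumulative percent of reads (y axis) held by the largest clonotypes (x axis, log), 1 line per library, with a dashed line at 50%, which Igll1-/- replicate 1 reaches at 186 clonotypes and the others at 550 to 825. Right: clonotypes shared between the 2000 largest of each pair of libraries, split by V gene; the WT pair shares 260, of which 83 are IGHV11-2.

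In all 4 lists of the 2000 largest there were 23 clonotypes of 7380 in any list, 8 with IGHJ1, 10 with IGHJ2 and 5 with IGHJ3. They include the 3 IGHV11-2 clonotypes and both IGHV12-3 clonotypes shown above, the short ARGGFAY, ARLFAY and ARWFAY, and ARHYYGSSYYFDY, which was listed under 7 V genes. At any size 1821 clonotypes were found in all 4 libraries and held 36.3% and 29.8% of WT and 39.1% and 21.9% of Igll1-/- reads. MRYGNYWYFDV with IGHV11-2 had 13691 and 15993 reads in WT and 66 and 129 in Igll1-/- libraries, and ranked first in both WT libraries. MRYSNYWYFDV had 5464 and 7961 against 41 and 59, and MRYGSSYWYFDV 8858 and 2986 against 58 and 135. Both Igll1-/- libraries lay far below both WT libraries for all 3, which were chosen for their size in WT, so this order is a description only.

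Several IGHV12-3 clonotypes were by far largest in 1 library. AGDNYGYWYFDV with IGHV12-3 had 307 and 236 reads in WT and 22381 and 88 in Igll1-/- libraries, and AGDLYDGYYYFDY had 89 and 19 against 25 and 10523. AGDYDGYWYFDV with IGHV12-3 and IGHJ1 had 7155 and 504 against 38 and 49. AGDMMGYWYFDV, nearly all of it the unproductive IGHV12-3 clonotype described above, had 29 and 13 against 10 and 7975. Other clonotypes were large in more libraries. ARHYYGSSYYFDY with IGHV5-17, at 3063 and 777 against 5747 and 123 reads, ranked 5, 17, 2 and 277, and the genotypes overlapped. ARGGFAY with IGHV1-47 and IGHJ3 had 798 and 717 reads in WT and 4307 and 833 in Igll1-/- libraries and ranked 17, 19, 4 and 27. Tested by reads, 0 (0%) of 635 clonotypes with at least 10 reads in at least 2 libraries differed between the genotypes by edgeR's quasi-likelihood test. At an unadjusted p under 0.05 there were 294, and 238 of them were lower, beside a median log2 fold change of −0.81 over all 635. The WT libraries shared 326 clonotypes with at least 10 reads in both, and the Igll1-/- libraries 166. The minimum thus let in more clonotypes through WT, so the excess of lower ones and the median are a description only. The smallest edgeR adjusted p was 0.0663, and 168 passed by DESeq2.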

How the data were processed

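The authors amplified Igh rearrangements from genomic DNA of sorted peritoneal B-1a cells with V framework 3 and J primers, selected products of 120 to 280 bp, sequenced them without molecular barcodes, assigned the reads with IMGT/HighV-QUEST and deposited 1 row per clonotype with its count of reads; versions are not given in the sources used here. The deposited percent identity of the V part was used only for the closing observations. Primer efficiency and amplification enter all read counts.

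Every clonotype then counted once, for its D gene, J gene, D-J pair, V-D-J combination (rows with several V genes left out), CDR3 length and residues (productive rows), with all clonotypes or residues as library size. Features with a count of at least 10 in at least 2 libraries were tested with edgeR 4.0.16 (quasi-likelihood, total scaling, Benjamini-Hochberg) in R 4.3.3. DESeq2 1.42.0 and limma 3.58.1 were installed and DESeq2 was an alternative. Single values were compared with the exact permutation test in Python 3.11.15. The scripts were tested on simulated data. Shared clonotypes were tested on reads. The depth gives a floor of 3 clonotypes, 0.00515% to 0.00926% of a library.

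The members and lists were chosen with earlier results of these data known. Text names the D genes with the 3 largest differences each way among those not overlapping, all J genes, of other features the 5 largest changes each way among those passing (or, with fewer than 3 passing, the 3 lowest p each way), and the 5 largest clonotypes per genotype and of those in all 4 libraries. Replicates are separate samples by their labels, and the authors give 2 independent experiments for their Igh repertoire figures. Which replicate belongs to which experiment is not stated. Nothing says that they are separate animals, so p-values measure the spread between these samples. Alternatives were TMM, DESeq2, no filter, the replicate number as a block, each library left out, reads as weights, at least 2, 10 or 100 reads, productive rows only, and clonotypes with CDR3s 1 residue apart and a 10-fold read ratio merged. Leaving out the IGHV11 and IGHV12 families, merging across V genes and the D stretches with their alternatives were added after seeing the data.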

Additional observations from a re-analysis of the deposited data

How the results depend on the processing

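The calls rest on 2 libraries per genotype, and most low counts are clonotypes of 1 read. The 0 D-J calls became 1 with DESeq2, 2 by reads and 0 to 4 when each library was left out. The 19 V-D-J calls became 4 with TMM, 5 with DESeq2, 0 by reads, 4 with at least 2 reads, 6 with at least 10 reads, 3 with near-identical clonotypes merged, 5 with merging across V genes, 0 without IGHV11 and IGHV12, and 0 to 14 when each library was left out. The 2 length calls became 0 with TMM, 0 with the replicate number as a block, 0 by reads, 1 without a filter, 1 with merging across V genes and 0 to 1 when each library was left out. The 3 residue calls became 5 with DESeq2, 1 by reads (not one of the 3), 5 with at least 10 reads, 5 without IGHV11 and IGHV12, 1 with merging across V genes and 0 to 3 when each library was left out. The 0 calls of clonotypes by reads became 50 with TMM (8 higher and 42 lower), 168 with DESeq2, 40 of 67 with at least 100 reads and 0 to 2 when each library was left out.

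The difference in productive share became −1.50 points by reads, 0.960 with at least 10 reads and 0.692 with merging across V genes, and that in mean length −0.438 residues by reads. The difference in net charge became 0.0278 by reads, and that in hydropathy 0.166 by reads, 0.146 with at least 2 reads, 0.203 with at least 10 and 0.0887 with merging across V genes. The tyrosine-rich stretches differed by −26.9 points by reads, −10.3 with at least 2 reads, −17.8 with at least 10 and −6.01 with merging, and the hydrophobic ones by 9.07, 6.84, 10.1 and 4.12. The J difference between genotype means, 5.26%, became 17.2% by reads and 11.6% with at least 10 reads, where the WT libraries differed by 4.98% and 7.76%. The effective number of clonotypes differed by −25.9% of the WT mean and by 48.0% as an inverse Simpson index (−65.1% and −67.5% without IGHV11 and IGHV12), and ran from −65.8% to 14.1% when each library was left out. The overlap between minus within genotypes, −5.34 points, became −8.50 over the 500 largest, −1.68 over the 10000 largest, −3.18 without IGHV11 and IGHV12, and −9.28 to −1.33 when each library was left out. IGHD2-1 turned from 0.17 to −0.73 by reads and −0.011 with at least 10 reads, and IGHV9-4 with IGHD4-1 and IGHJ1 ran from −0.53 without Igll1-/- replicate 1 to 3.44 without Igll1-/- replicate 2. The causes were not tested. With the replicate number as a block 16 V-D-J combinations, 3 residues and 0 D genes, D-J pairs and shared clonotypes passed, and deviations of same-numbered libraries correlated at r from −0.18 to 0.11 across the features tested here and at 0.32 across V genes. With 2 libraries per genotype and no label that ties the numbers, they were not taken as pairs.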

Other observations

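The files also give, for each clonotype, the percent identity of its V part to germline. V parts of 100% identity made up 43.6% and 44.4% of WT and 41.1% and 37.4% of Igll1-/- clonotypes, lower in both Igll1-/- libraries (exact permutation test, p = 0.333, the smallest it allows). Among clonotypes of 1 read 33.4% to 39.1% had an identity of 100%, and among those of 1000 or more reads 77.8% to 100%.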
